A study of Mus musculus with 16 samples.

Results

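MHC class I molecules carry peptides cut from a cell's own proteins to its surface, where cytotoxic T cells and natural killer cells read them. The 10 genes described here encode the successive parts of that route: the class I-like heavy chains H2-T22 and H2-T23, the shared light chain B2m, the peptide transporter chains Tap1 and Tap2, the loading chaperone Tapbp, the immunoproteasome subunits Psmb8, Psmb9 and Psmb10, and the transcriptional activator Nlrc5. They were taken by symbol from a gene count table of 52997 rows, all 10 were found there, and all 10 were among the 13949 genes with enough reads to test.

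The libraries came from muscle mesenchymal stromal cells, the connective tissue cells that lie between muscle fibres, sorted from hindlimb skeletal muscle of C57BL/6 mice aged 8 weeks. CGRP, a peptide of sensory neurons, or PBS, a buffered saline, was injected into the peritoneum, and cells were taken 4 h or 8 h later. Each of the 4 groups (PBS 4 h, CGRP 4 h, PBS 8 h, CGRP 8 h) holds 4 biological replicates, with 1000 cells sorted for each library. No genotype other than the strain is stated, and neither the dose and sort gate nor the number of mice behind a replicate is stated in the sources used here, so p-values measure the spread between these libraries.

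As background, proteasomes that carry the inducible subunits Psmb8, Psmb9 and Psmb10 in place of the constitutive Psmb5, Psmb6 and Psmb7 cut proteins with a different preference for the peptide's end. TAP, a pair of Tap1 and Tap2, pumps the peptides into the endoplasmic reticulum, where Tapbp (tapasin) bridges TAP and a waiting heavy chain bound to B2m. Most cells make these proteins at a low level and make more under interferon, through interferon regulatory factors and, for class I genes, Nlrc5. Stromal cells carry class I, while class II is largely a property of dedicated antigen presenting cells.

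Of the 10 genes, 7 lie on chromosome 17 in the mouse MHC region. In mm10 (GENCODE annotation) Psmb9 (34181987 to 34187764, minus strand), Tap1 (34187553 to 34197225, plus), Psmb8 (34197721 to 34201454, plus) and Tap2 (34203527 to 34216321, plus) follow each other within 34335 bases. Tapbp (33915899 to 33929292, plus), H2-T23 (36029773 to 36032855, minus) and H2-T22 (36037128 to 36042747, minus) lie on either side. B2m is on chromosome 2 (122147686 to 122153083, plus), and Nlrc5 (94434356 to 94527272, plus) and Psmb10 (105935735 to 105938444, minus) are on chromosome 8. All 10 are annotated as protein-coding. The library kit does not mark strand, so reads from exons shared with a gene on the opposite strand cannot be told apart. Such exons hold 29.4% of the exon bases of H2-T22 (with A930015D03Rik), 24.9% of Tapbp (Gm19412), 14.7% of Psmb8 (Gm20496), 14.1% and 4.36% of Tap2 (Gm15821 and Gm20496), 5.79% of Psmb9 and 3.87% of Tap1 (each with the other) and 0.918% of Nlrc5, and on the same strand 4.11% of Tapbp are shared with Zbtb22. B2m, H2-T23 and Psmb10 lie across genes of the opposite strand but share 0 exon bases with them.

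The promoters were read because these genes share regulators. RefSeq (GRCm38.p6) gave a window from 250 bases before to 50 bases after the gene start for 8 of the 10 genes, all but Tap2 and Nlrc5, and 4 motifs were searched on both strands of each window. The interferon-stimulated response element (ISRE) was matched in 3 of the 8 windows, as GAAACTGAAA in B2m and, on the other strand, as TTTCACTTTC in H2-T22 and TTTCTCTTTC in H2-T23, and in 3.44% of all 32851 windows. The gamma-activated site, searched as TTCNNNGAA, was in the window of Psmb8 and in 8.3% of all windows. The CCAAT box, searched as CCAAT, was in 6 of 8 and in 37.4% of all, and the full cAMP response element TGACGTCA was in 0 of 8 and in 1.79% of all. The CCAAT matches of Psmb9 and Tap1 are the same bases read from opposite strands, counted for both genes. These matches are descriptions of letters and not binding sites. For Tapbp, Psmb8 and Psmb9 the RefSeq start lies 3579, 474 and 434 bases downstream of the GENCODE gene start. The windows of these genes therefore lie inside the GENCODE coordinates given above. The 250 bases before the start are printed 5′ to 3′ on the gene's own strand for the genes with an ISRE match and for Tap1, whose RefSeq start lies 226 bases from that of Psmb9 on the other strand, so that the pair share 275 bases of their windows. Capitals mark ISRE and CCAAT matches.
H2-T23, chr17:36032702-36032951, minus strand: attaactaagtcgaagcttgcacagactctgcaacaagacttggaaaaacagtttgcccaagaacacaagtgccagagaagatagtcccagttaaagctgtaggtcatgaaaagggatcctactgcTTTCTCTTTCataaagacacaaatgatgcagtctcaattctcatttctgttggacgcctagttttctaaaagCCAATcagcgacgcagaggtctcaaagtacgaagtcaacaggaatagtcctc
H2-T22, chr17:36042743-36042992, minus strand: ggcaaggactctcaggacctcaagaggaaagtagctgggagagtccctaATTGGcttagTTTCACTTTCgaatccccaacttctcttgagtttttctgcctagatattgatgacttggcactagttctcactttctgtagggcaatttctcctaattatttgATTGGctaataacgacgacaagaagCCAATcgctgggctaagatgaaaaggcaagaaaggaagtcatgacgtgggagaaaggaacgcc
B2m, chr2:122147437-122147686, plus strand: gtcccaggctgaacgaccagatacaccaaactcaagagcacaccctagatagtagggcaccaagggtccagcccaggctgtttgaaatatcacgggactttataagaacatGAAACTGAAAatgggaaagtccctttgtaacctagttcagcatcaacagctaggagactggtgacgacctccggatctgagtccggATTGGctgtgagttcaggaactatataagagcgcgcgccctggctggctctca
Tap1, chr17:34187306-34187555, plus strand: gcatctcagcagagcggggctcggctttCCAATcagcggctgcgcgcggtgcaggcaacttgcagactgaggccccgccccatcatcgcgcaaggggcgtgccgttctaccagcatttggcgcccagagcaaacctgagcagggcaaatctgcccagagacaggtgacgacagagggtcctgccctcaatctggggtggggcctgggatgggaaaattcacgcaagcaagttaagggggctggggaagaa
In this order, the ISRE match begins 124, 191 and 139 bases before the start in H2-T23, H2-T22 and B2m. H2-T23 and H2-T22 fell after CGRP at 4 h and B2m did not pass the test. Of the genes whose window held no ISRE match, Psmb8, Psmb9 and Psmb10 fell and Tap1 and Tapbp did not pass. Whether the match bears on the changes was not tested.

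Total counts ran from 6373713 to 10011920 per library. Levels are given as CPM, counts scaled to the library's effective size, with SD over n = 4 libraries. The stromal markers were high in every library (10 of 10 tested, Pdgfra at 625 CPM on average over the 16 libraries), and defining markers of leukocytes were near 0, with 40 reads of Ptprc in all libraries together. In 4 libraries more genes were detected (23294 to 25579, against 21138 to 22341 in the other 12): PBS 4 h replicate 4, CGRP 4 h replicate 3 and PBS 8 h replicates 1 and 4. Where a call for a named gene was lost or gained without these 4 libraries, the adjusted p without them is given.

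Levels of the 10 genes differed widely. Per kilobase of the principal transcript and averaged over all 16 libraries, B2m stood at 807 CPM per kb and Tapbp at 169. The middle of the order was held by H2-T23 (43.2), H2-T22 (34.9), Psmb10 (34.2), Psmb8 (30.7) and Tap2 (25.3), whose ranges over libraries overlapped from each gene to the next. Tap1 (12.2) and Psmb9 (10.2) were lower, also with overlapping ranges, and Nlrc5 was at 0.204 CPM per kb. The classical heavy chains H2-D1 and H2-K1, which are not among the 10, stood at 464 and 303 CPM per kb.

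**Figure D1:**
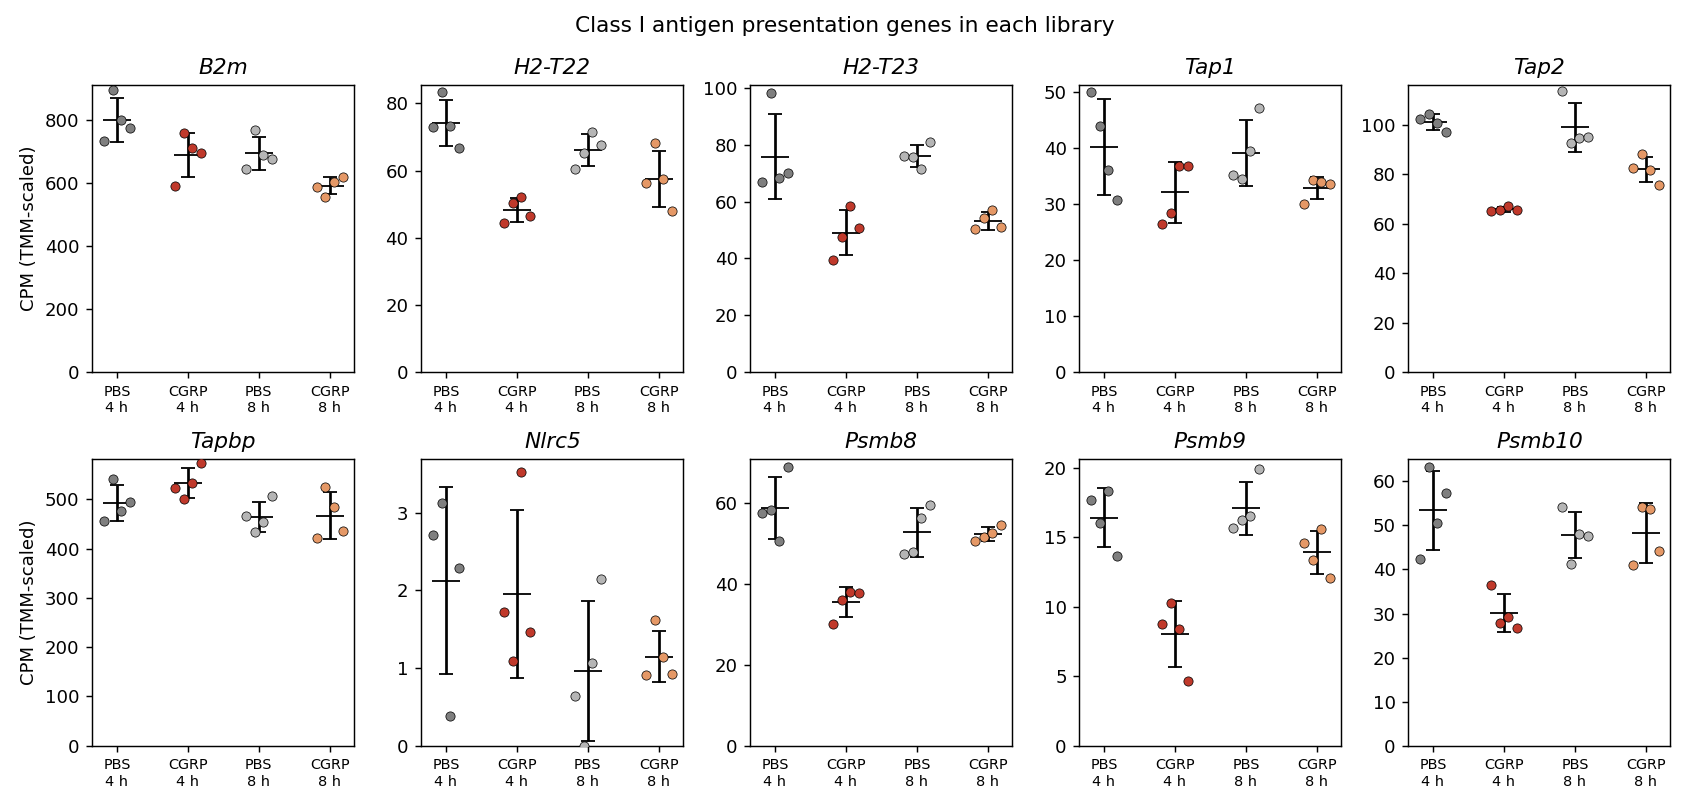
Level of each of the 10 genes in CPM (vertical axes, starting at 0) in every library (points) of the 4 groups, with the group mean (horizontal line) and SD (error bars, n = 4). At 4 h the CGRP points of H2-T22, H2-T23, Tap2, Psmb8, Psmb9 and Psmb10 lie below every PBS point.

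At 4 h after injection, 6 of the 10 genes fell in CGRP libraries against PBS and 0 rose (0 also with DESeq2 and at an unadjusted p under 0.05). These were H2-T22, H2-T23, Tap2, Psmb8, Psmb9 and Psmb10, with falls of 34.9% to 50.8% in the fitted mean. Over all genes tested, 8.37% fell and 7.84% rose by the same test (edgeR's quasi-likelihood test with Benjamini-Hochberg adjustment, adjusted p under 0.05). The log2 fold change was negative for 9 of the 10, with a median of -0.62 against -0.00 over all genes. The same 6 genes were those whose CGRP and PBS libraries did not overlap with CGRP lower, which held for 9.9% of all genes. The 10 genes were chosen with earlier results of these data known. The contrasts with all genes, here and at 8 h, are therefore descriptions and not tests. All 6 calls held in each of 25 alternative analyses, which included leaving out any 1 library and leaving out the 4 libraries with most genes detected.

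Among the heavy chains, H2-T22, a nonclassical chain known as a ligand of some gamma delta T cell receptors, stood at 73.1, 83.5, 73.2 and 66.7 CPM in PBS replicates 1 to 4 at 4 h and at 44.3, 50.3, 52.1 and 46.4 CPM in the CGRP replicates. Every CGRP library was below every PBS library, and the log2 fold change was -0.62 ± 0.11 (SE, adjusted p = 0.000382). H2-T23, the heavy chain of Qa-1, which presents peptides from the leader sequences of other class I chains to receptors on natural killer cells, stood at 67.0, 98.2, 68.4 and 69.97 CPM after PBS and at 39.5, 47.7, 58.6 and 50.8 CPM after CGRP. PBS replicate 2 stood apart above the other 3, and the lowest PBS library, replicate 1, was above every CGRP library. The log2 fold change was -0.63 ± 0.12 (adjusted p = 0.00116), and it ran from -0.71 to -0.48 when leaving out 1 library in turn. Class I genes include close copies, H2-T10 for H2-T22 among them, and the handling of multi-mapping reads is not stated, so part of each heavy chain's count may belong to a copy.

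B2m, which pairs with every class I heavy chain, stood at 733, 895, 801 and 774 CPM after PBS and at 591, 759, 713 and 696 CPM after CGRP at 4 h. The groups overlapped only through CGRP replicate 2, which was above PBS replicate 1. The log2 fold change was -0.22 ± 0.08 with an adjusted p of 0.0855, so B2m did not pass; under upper-quartile scaling it did (-0.26, adjusted p = 0.0447).

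The transporter chains differed in how tightly they were measured. Tap2 stood at 102, 104, 101 and 97.0 CPM after PBS and at 64.9, 65.4, 67.0 and 65.7 CPM after CGRP. The 4 CGRP libraries lay within a span of about 2 CPM and far below the PBS libraries, for a log2 fold change of -0.62 ± 0.08 (adjusted p = 3.08e-05). Tap1 stood at 50.02, 43.9, 36.0 and 30.6 CPM after PBS and at 26.4, 28.4, 36.7 and 36.7 CPM after CGRP. The groups overlapped, and the log2 fold change of -0.32 ± 0.15 did not pass (adjusted p = 0.149). Without the 4 libraries with most genes detected, which include the lowest PBS and a high CGRP value, it was -0.50 (adjusted p = 0.0372). Tapbp was the only one of the 10 with a positive log2 fold change at 4 h, 0.12 ± 0.08 (adjusted p = 0.388), at 492 ± 36.6 CPM after PBS and 533 ± 30.8 after CGRP.

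The immunoproteasome subunits had the 3 largest falls of the 10 genes at 4 h. Psmb9, which replaces Psmb6, stood at 17.7, 16.02, 18.3 and 13.6 CPM after PBS and at 8.73, 10.3, 8.42 and 4.65 CPM after CGRP. CGRP replicate 4 was the lowest and the groups did not overlap, and the log2 fold change was -1.02 ± 0.19 (adjusted p = 0.000887), a fold of 0.492. Psmb10, which replaces Psmb7, stood at 42.5, 63.2, 50.6 and 57.4 CPM after PBS and at 36.4, 27.9, 29.3 and 26.7 CPM after CGRP. The highest CGRP library, replicate 1, was below the lowest PBS library, also replicate 1, and the log2 fold change was -0.83 ± 0.14 (adjusted p = 0.000237). Psmb8, which replaces Psmb5, stood at 57.6, 58.5, 50.6 and 69.1 CPM after PBS and at 30.2, 36.2, 38.2 and 37.9 CPM after CGRP. The gap between the groups was wider than the span of the CGRP libraries, and the log2 fold change was -0.73 ± 0.11 (adjusted p = 0.000125).

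Nlrc5, the activator of class I genes, was too low to read. It had 19, 30, 3 and 22 reads in the PBS libraries and 17, 9, 28 and 11 reads in the CGRP libraries at 4 h. The groups overlapped throughout, and the 95% interval of the log2 fold change ran from -1.39 to 1.13 (adjusted p = 0.918). At 8 h the PBS libraries held 5, 0, 7 and 16 reads and the CGRP libraries 9, 15, 11 and 6. The library with 0 reads allows a level of up to 0.439 CPM, counting 3 reads as the limit for counting error, and the 8 h interval ran from -1.16 to 1.66 (adjusted p = 0.883). No difference in Nlrc5 was detectable at this depth.

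**Figure D2:**
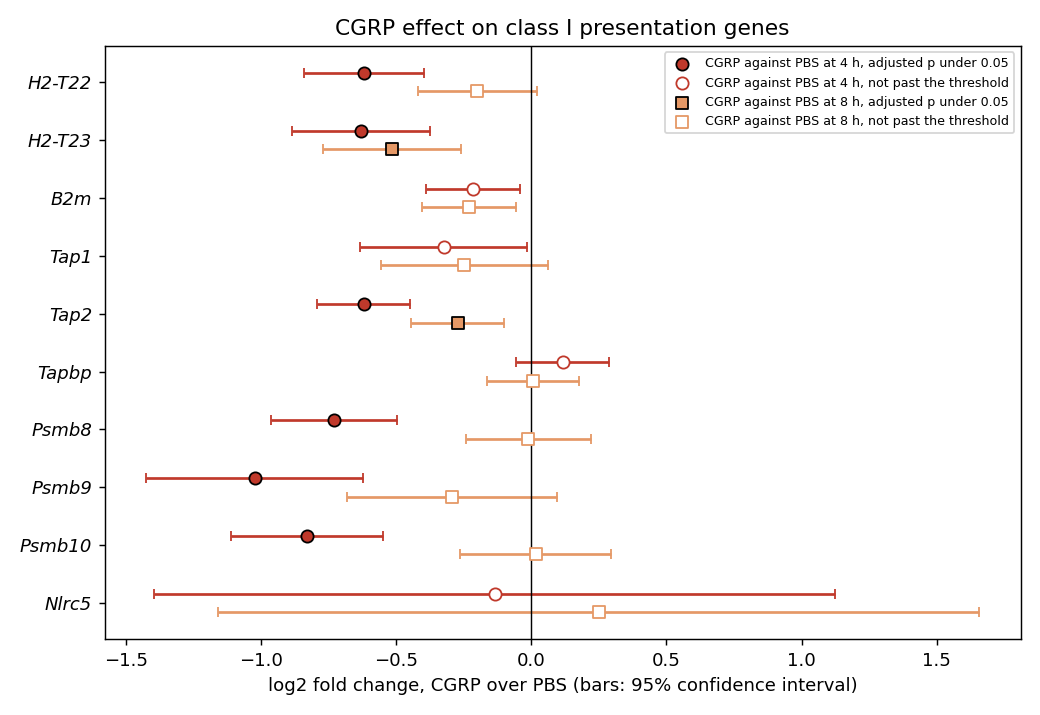
Log2 fold change of CGRP against PBS (horizontal axis) for each of the 10 genes (vertical axis) at 4 h and at 8 h, with 95% intervals from edgeR; filled points are called at an adjusted p under 0.05. The 6 genes called at 4 h lie between -0.62 and -1.02, and at 8 h the 2 called genes are H2-T23 at -0.51 and Tap2 at -0.27.

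At 8 h, 2 of the 10 genes were lower after CGRP, H2-T23 and Tap2, and 0 were higher (0 also with DESeq2 and at an unadjusted p under 0.05). Over all genes, 3.67% were called lower and 5% higher; with upper-quartile scaling the share of calls that were higher was 45% against 57.7% in the main analysis. The median log2 fold change of the 10 was -0.22, against -0.02 over all genes, and 7 of 10 were negative. H2-T23 stood at 76.1, 75.7, 71.5 and 80.9 CPM after PBS and at 50.3, 54.3, 57.2 and 51.1 CPM after CGRP. All CGRP libraries were below all PBS libraries by more than the span within either group, for a log2 fold change of -0.51 ± 0.12 (adjusted p = 0.0113). Without the 4 libraries with most genes detected, 2 of them in the PBS 8 h group, it was -0.46 with an adjusted p of 0.131.

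The Tap2 call at 8 h lay close to the threshold and was lost in most alternatives. Tap2 stood at 114, 92.5, 94.8 and 94.9 CPM after PBS and at 82.3, 88.2, 81.5 and 75.5 CPM after CGRP. The groups did not overlap, PBS replicate 1 stood apart as the highest, and the log2 fold change was -0.27 ± 0.08 (adjusted p = 0.0432). Leaving out any 1 of 14 of the 16 libraries ended the call. The exceptions were PBS 8 h replicate 2 and CGRP 8 h replicate 2. Without any 1 of the 4 h libraries the value stayed at -0.26 to -0.27 (adjusted p from 0.0507 to 0.0629). Without PBS 8 h replicate 1 it was -0.19 (adjusted p = 0.212), and without CGRP 8 h replicate 4 it was -0.23 (adjusted p = 0.157). Without the 4 libraries with most genes detected it was -0.185 (adjusted p = 0.399).

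B2m, Tap1 and Psmb9 also had CGRP libraries below all PBS libraries at 8 h without passing the test, so that 5 of 10 genes did not overlap in that direction, against 6.75% of all genes. B2m stood at 645, 770, 688 and 676 CPM after PBS and at 589, 556, 603 and 618 CPM after CGRP, for a log2 fold change of -0.23 ± 0.08 (adjusted p = 0.0924). Psmb9 stood at 15.6, 16.3, 16.6 and 19.9 CPM after PBS and at 14.6, 13.4, 15.6 and 12.1 CPM after CGRP (-0.29 ± 0.19, adjusted p = 0.382). The Psmb9 groups all but touched, CGRP replicate 3 lying just under PBS replicate 1. Tap1 was at 39.0 ± 5.86 CPM after PBS and 32.9 ± 1.98 after CGRP (adjusted p = 0.348), and H2-T22 at 66.1 ± 4.66 and 57.5 ± 8.31 (adjusted p = 0.283).

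The other immunoproteasome subunits were level between the groups at 8 h within narrow intervals. Psmb8 stood at 47.5, 48.03, 56.4 and 59.7 CPM after PBS and at 50.6, 51.8, 52.7 and 54.7 CPM after CGRP. The CGRP libraries lay inside the PBS range, with a log2 fold change of -0.01 and a 95% interval from -0.24 to 0.22. Psmb10 stood at 54.1, 41.3, 48.003 and 47.6 CPM after PBS and at 40.9, 54.1, 53.7 and 44.2 CPM after CGRP. These ranges nearly coincide, and the log2 fold change was 0.02 with an interval from -0.26 to 0.29. Tapbp was at 0.01, with an interval from -0.16 to 0.18, and both Psmb10 and Tapbp turned slightly negative under upper-quartile scaling (-0.0248 and -0.0335).

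The change in the CGRP effect between the times was tested directly. Subtracting the 4 h effect from the 8 h effect gave a positive, called difference for Psmb8 (0.72 ± 0.16 on the log2 scale, adjusted p = 0.0263) and for Psmb10 (0.84 ± 0.19, adjusted p = 0.028). Over all genes, 0.695% were called in that direction and 0.423% in the other. For H2-T22 (0.42 ± 0.15, adjusted p = 0.18), Tap2 (0.35 ± 0.12, adjusted p = 0.156) and Psmb9 (0.73 ± 0.27, adjusted p = 0.193) the difference did not pass, so an effect that changed with time was not shown for them. For H2-T23 it was 0.12 with a 95% interval from -0.24 to 0.48. The Psmb8 call was lost without CGRP 4 h replicate 1 (0.64, adjusted p = 0.0618) or PBS 8 h replicate 1 (0.67, adjusted p = 0.0684), and the Psmb10 call without any 1 of 7 libraries (PBS 4 h replicate 2, CGRP 4 h replicates 2 and 4, PBS 8 h replicates 3 and 4, CGRP 8 h replicates 2 and 3), at an adjusted p of up to 0.0701. Without the 4 libraries with most genes detected the values were 0.69 for Psmb8 (adjusted p = 0.12) and 0.90 for Psmb10 (adjusted p = 0.132).

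The times were also compared within each treatment, from libraries that the comparisons above share. After PBS, 0 of the 10 genes were called at 8 h against 4 h (1 of 10 at an unadjusted p under 0.05, B2m at -0.21, and 0 with DESeq2), where 0.251% of all genes were lower and 0.265% higher. After CGRP, Tap2 (0.32 ± 0.08, adjusted p = 0.022), Psmb8 (0.56 ± 0.11, adjusted p = 0.00309), Psmb9 (0.79 ± 0.19, adjusted p = 0.014) and Psmb10 (0.68 ± 0.14, adjusted p = 0.00299) were higher at 8 h, where 4.2% of all genes were called higher and 3.05% lower. For these 4 genes every CGRP 8 h library was above every CGRP 4 h library, which held for 6.65% of all genes. The Tap2 call was lost without CGRP 4 h replicate 1 (adjusted p = 0.0566), without CGRP 8 h replicate 2 (adjusted p = 0.0774) and with no filter on low counts (adjusted p = 0.0842). H2-T22 at 0.25 (adjusted p = 0.174) and H2-T23 at 0.12 (adjusted p = 0.661) did not pass.

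**Figure D3:**
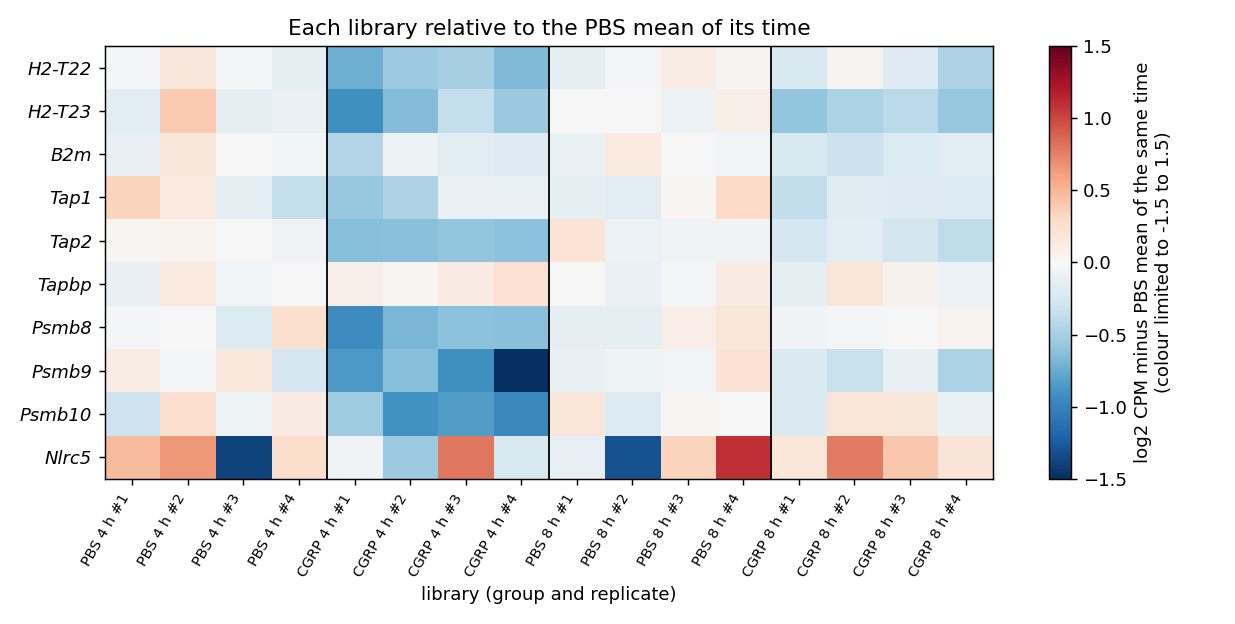
Log2 of CPM plus 0.5 of each gene (rows) in each library (columns, grouped), relative to the gene's mean over the PBS libraries of the same time, on the colour scale shown. At 4 h every CGRP column is below the PBS mean for the 6 called genes and for B2m and Tap1, which were not called. Every CGRP column is above it for Tapbp, and Nlrc5 has both signs.

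The balance between inducible and constitutive catalytic subunits was described as a ratio of CPM per kb in each library, with no test. At 4 h Psmb8 to Psmb5 was 0.428 ± 0.0749 after PBS and 0.214 ± 0.0368 after CGRP, Psmb9 to Psmb6 was 0.0494 ± 0.00835 and 0.0242 ± 0.00695, and Psmb10 to Psmb7 was 1.19 ± 0.199 and 0.646 ± 0.0472. All 3 ratios were lower in every CGRP library than in every PBS library at 4 h. Psmb5 itself was higher in every CGRP library than in every PBS library at 4 h (76.5 ± 3.47 CPM after PBS and 92.8 ± 8.24 after CGRP). It was not called (0.28 ± 0.10 on the log2 scale, adjusted p = 0.0649), but the fall in Psmb8 to Psmb5 is not that of Psmb8 alone. At 4 h Psmb6 (197 ± 10.7 and 196 ± 14.3 CPM) and Psmb7 (39.7 ± 0.864 and 41.1 ± 4.06 CPM) overlapped between the groups and were not called. At 8 h Psmb8 to Psmb5 was 0.450 ± 0.0603 after PBS and 0.324 ± 0.0504 after CGRP, and Psmb9 to Psmb6 was 0.0528 ± 0.00459 and 0.0365 ± 0.00554, again without overlap. Psmb10 to Psmb7 overlapped at 8 h, from 0.921 to 1.25 after PBS and between 0.693 and 1.32 in CGRP libraries. At 8 h the constitutive Psmb5, the partner that Psmb8 replaces, was higher after CGRP (65.2 ± 5.64 CPM after PBS and 91.1 ± 13.4 after CGRP, 0.48 ± 0.10 on the log2 scale, adjusted p = 0.00528), while Psmb8 itself was not called. Psmb5 was at 0.41 without the 4 libraries with most genes detected (adjusted p = 0.112). At 8 h Psmb6 ran from 183 to 197 CPM after PBS and from 210 to 243 after CGRP, and neither Psmb6 nor Psmb9 was called. Psmb7 was at 37.4 ± 2.75 and 44.9 ± 7.93 CPM and was not called. Both parts of a ratio can therefore move it.

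**Figure D4:**
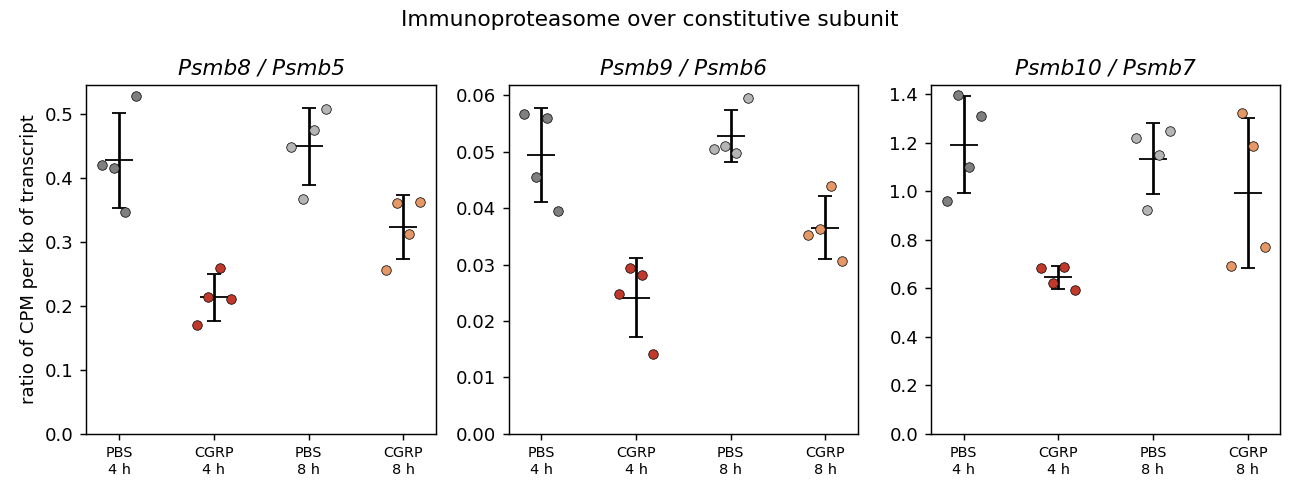
Ratio of each inducible proteasome subunit to the constitutive subunit it replaces, in CPM per kb (vertical axes, starting at 0), in every library (points) of the 4 groups with the group mean (horizontal line) and SD (error bars, n = 4). At 4 h all CGRP points lie below all PBS points for the 3 pairs, and at 8 h the ranges of Psmb10 to Psmb7 overlap.

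Other genes of the route were counted from lists, which were also chosen with earlier results of these data known. For every list below, the shares over all genes tested are 8.37% lower and 7.84% higher at 4 h. At 8 h they are 3.67% lower and 5% higher. Of 15 other class I chains listed, 10 were tested, and at 4 h 2 fell and 0 rose (median -0.19). H2-M3, which presents formylated peptides, fell from 62.9 ± 2.09 to 37.3 ± 4.42 CPM at 4 h (-0.75 ± 0.11, adjusted p = 4.61e-05) and was lower at 8 h (-0.42 ± 0.10, adjusted p = 0.0145), where it was the only one called. The 8 h call was lost without PBS 8 h replicate 4 (adjusted p = 0.0514), CGRP 8 h replicate 1 (adjusted p = 0.0678) or the 4 libraries with most genes detected (adjusted p = 0.205). Mr1, which presents microbial vitamin metabolites, was at -0.50 ± 0.17 at 4 h (adjusted p = 0.0456), a call that 13 of the 16 leave-one-out fits lost. The classical chains H2-K1 and H2-D1 were not called for CGRP against PBS. At 4 h H2-K1 was at -0.13 (95% interval -0.28 to 0.03, adjusted p = 0.277) and H2-D1 at -0.16 (-0.30 to -0.01, adjusted p = 0.137). At 8 h both were between -0.03 and -0.04. Both were lower on average at 8 h than at 4 h. For H2-K1 this difference was called after PBS and after CGRP, where 0.251% and 3.05% of all genes were called lower. For H2-D1 it was not called. H2-K1 was at 565 ± 17.3 and 447 ± 37.6 CPM after PBS and at 518 ± 35.7 and 433 ± 17.9 after CGRP. H2-D1 was at 1114 ± 63.9 and 904 ± 46.5 CPM after PBS and at 999 ± 39.4 and 882 ± 52.3 after CGRP.

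Of 10 other genes of peptide trimming and loading, 1 rose and 2 fell at 4 h (median -0.06) and 1 was lower at 8 h (median -0.05). Tapbpl, a relative of tapasin that edits peptides, fell from 35.1 ± 5.84 to 21.6 ± 5.30 CPM at 4 h (-0.70 ± 0.17, adjusted p = 0.00568), the opposite sign to Tapbp itself; without the 4 libraries with most genes detected it was -0.49 (adjusted p = 0.0995). The signal peptidase subunit Spcs1 (-0.23 ± 0.07, adjusted p = 0.0341) and the cytosolic peptidase Tpp2 (0.34 ± 0.11, adjusted p = 0.0347) were called at 4 h, and the endosomal peptidase Lnpep at 8 h (-0.40 ± 0.11, adjusted p = 0.0228). Leaving out 1 library lost the Spcs1 call in 13 of 16 fits and the Tpp2 and Lnpep calls in 5 each, and without the 4 libraries with most genes detected the adjusted p was 0.114, 0.163 and 0.121. Of 8 proteasome activators, assembly factors and constitutive catalytic subunits, the 2 that fell at 4 h were Psme1 (-0.39 ± 0.08, adjusted p = 0.00262) and Psme2 (-0.36 ± 0.09, adjusted p = 0.0108), the subunits of the interferon-inducible activator PA28. Psme2 was at -0.31 without the 4 libraries (adjusted p = 0.0842). Neither was called at 8 h (-0.11 and 0.04).

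Of 15 listed regulators of class I transcription, 1 rose and 0 fell at 4 h (median 0.06) and 0 were called at 8 h (0 also with DESeq2 and at an unadjusted p under 0.05). Irf1, an interferon regulatory factor that acts on these promoters, was at -0.10 ± 0.10 at 4 h (adjusted p = 0.531) and -0.06 ± 0.10 at 8 h (adjusted p = 0.756). Nfkb1, a subunit of NF-kB, rose at 4 h (0.43 ± 0.12, adjusted p = 0.0201), a call lost without PBS 4 h replicate 4 (adjusted p = 0.0508), CGRP 4 h replicate 2 (adjusted p = 0.0647) or CGRP 4 h replicate 4 (adjusted p = 0.0969).

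Of 9 interferon receptor chains, kinases and their inhibitors, 2 rose and 1 fell at 4 h. Ifngr1, the ligand-binding chain of the interferon gamma receptor, fell at 4 h (-0.51 ± 0.10, adjusted p = 0.00159) and was lower at 8 h (-0.43 ± 0.10, adjusted p = 0.0118). Socs1 and Socs3, which inhibit cytokine receptor signalling, rose at 4 h, Socs1 from 7.37 ± 3.89 to 16.4 ± 3.76 CPM (1.14 ± 0.31, adjusted p = 0.015) and Socs3 from 94.8 ± 19.7 to 198 ± 41.3 CPM (1.07 ± 0.17, adjusted p = 0.000357). At 8 h Socs3 (0.59 ± 0.17, adjusted p = 0.0402) and Ifngr2, the second chain of that receptor (0.32 ± 0.09, adjusted p = 0.0233), were higher. Leaving out 1 library lost the Socs3 call at 8 h in 10 of 16 fits and the Ifngr2 call in 5. The Ifngr1 call at 8 h was lost without PBS 8 h replicate 3 (-0.31, adjusted p = 0.0654). Without the 4 libraries with most genes detected the adjusted p at 8 h was 0.0894 for Ifngr1, 0.186 for Socs3 and 0.317 for Ifngr2.

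Of 32 interferon response genes, 5 fell and 0 rose at 4 h, where 8.37% of all genes fell and 7.84% rose. A negative log2 fold change was found for 28 of the 32 (median -0.30 against -0.00 over all genes). Ifit3, an antiviral gene, was at 66.0 ± 9.71 CPM after PBS and 27.1 ± 17.8 after CGRP (-1.29 ± 0.31, adjusted p = 0.0124); a fit to the 8 libraries of that time alone lost the call (adjusted p = 0.0879). Xaf1 (-0.52 ± 0.17, adjusted p = 0.0375) and Parp14 (-0.41 ± 0.13, adjusted p = 0.0414) were called with less margin: Xaf1 was lost in 6 and Parp14 in 13 of the 16 leave-one-out fits, and Parp14 also without the 4 libraries with most genes detected (adjusted p = 0.0605). At 8 h the median was -0.07, with Parp14 lower (-0.44 ± 0.14, adjusted p = 0.0447) and Ifi27 higher (0.32 ± 0.08, adjusted p = 0.0186). These were the only calls among the 32 at 8 h, where 3.67% of all genes were lower and 5% higher. The PBS libraries also differed between times: 30 of the 32 were negative at 8 h against 4 h (median -0.44). After CGRP 23 of 32 were negative (median -0.18). Over all genes these medians were -0.00 and -0.01. The mean summed level went from 1641 to 1292 CPM after PBS and from 1373 to 1258 after CGRP. The Parp14 call at 8 h was lost in 13 of the 16 leave-one-out fits and the Ifi27 call without PBS 8 h replicate 3 (adjusted p = 0.0515) or 4 (adjusted p = 0.0571), and without the 4 libraries the adjusted p was 0.378 and 0.131. Of 9 class II presentation genes only 3 had enough reads to test and 0 were called at 4 h or 8 h (0 at an unadjusted p under 0.05 and 0 with DESeq2). H2-Eb1 was at 3.70 ± 1.05 CPM after PBS and 2.19 ± 0.945 after CGRP at 4 h, and H2-DMa at 1.58 ± 0.769 and 2.32 ± 0.751.

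Markers of cell types moved as follows beside these results. Of 10 stromal markers, 1 rose and 5 fell at 4 h (summed level 163546 to 187574 CPM after PBS and 145873 to 153082 after CGRP). At 8 h 1 was higher and 3 lower (163626 to 176765 and 139643 to 159418 CPM). Over all genes 8.37% fell and 7.84% rose at 4 h, and 3.67% were lower and 5% higher at 8 h. Most of each sum came from Gsn, which was not called at either time (109401 ± 11627 CPM after PBS and 96031 ± 9084 after CGRP at 4 h). Pdgfra (-0.40 ± 0.07, adjusted p = 0.000219), Pdgfrb (-0.65 ± 0.11, adjusted p = 0.00044) and Cd34 (-0.34 ± 0.08, adjusted p = 0.0032) fell at 4 h, and Ly6a rose (0.26 ± 0.07, adjusted p = 0.0194). The Ly6a call was lost without PBS 4 h replicate 4 (adjusted p = 0.056) or the 4 libraries (adjusted p = 0.0978). In these bulk libraries fewer cells of a type and less RNA per cell cannot be told apart, and the part of the markers' changes in the class I results was not tested.

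Other cell types left few reads. The 10 macrophage markers summed to 4.99 to 10.2 CPM after PBS and 5.79 to 8.67 after CGRP at 4 h, with Cd68 at 2.71 and 4.14 CPM and Csf1r at 2.55 and 1.58 CPM. The 10 lymphocyte markers summed to 0.516 to 1.56 and 0.266 to 1.69 CPM at 4 h, and at 8 h to 1.34 to 2.29 after PBS and 0.216 to 1.22 after CGRP. Dendritic markers summed to 19.6 to 26.2 and 15.7 to 20.5 CPM at 4 h, nearly all from Zbtb46, while the defining Flt3, Itgax and Xcr1 were at 0.111, 0.182 and 0.104 CPM on average. Endothelial markers summed to 81.4 to 144 and 93.6 to 117 CPM at 4 h, carried by Tek, with Pecam1 at 0.763 and Cdh5 at 0.182 CPM on average. At 8 h the myofibre transcript Acta1 was lower after CGRP (127 ± 26.01 and 73.7 ± 12.99 CPM, -0.78 ± 0.19, adjusted p = 0.0204), a call lost in 5 of the 16 leave-one-out fits, and at 4 h the smooth muscle myosin Myh11 was lower (2.28 ± 0.869 and 0.373 ± 0.363 CPM, -2.60 ± 0.68, adjusted p = 0.0111). The 6 erythroid markers varied widely between libraries. They summed to 1.29 to 44.4 CPM after PBS and 1.06 to 47.6 after CGRP at 4 h. At 8 h they summed to 1.53 to 3.04 after PBS and 0.970 to 44.2 after CGRP. The haemoglobin Hbb-bs, which was not tested, reached 31.9, 27.5, 0.537 and 26.3 CPM in these groups in turn. Alas2, the only one tested, was not called.

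Genes outside the lists whose pattern over the 16 libraries was nearest to the mean of the 10 were found by the root mean square distance of standardized log2 CPM, among 11972 candidates. They were Sp100 (0.421), Tcf4 (0.464), Il11ra1 (0.480), Bloc1s1 (0.485) and Abca8a (0.495). The 10 genes themselves lay at 0.454 (H2-T22) to 1.15 (Tapbp). Sp100, a nuclear body protein, was at 81.5 ± 4.20 CPM after PBS and 49.0 ± 8.36 after CGRP at 4 h, and at 70.3 ± 9.31 and 60.7 ± 6.05 at 8 h. Il11ra1, the interleukin 11 receptor chain, was at 545 ± 46.1 and 333 ± 14.0 CPM at 4 h and at 516 ± 33.1 and 396 ± 42.6 at 8 h. These genes were chosen for the likeness, so no test is given.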

How the data were processed

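RNA of sorted muscle mesenchymal stromal cells was measured in 16 libraries, 4 in each of 4 groups. The authors deposited whole-number counts for each gene. The submitters' processing notes name STAR 2.5.4, featureCounts and mm10. The sources used here do not give the handling of strand and multi-mapping reads. Per the labels, poly(A) RNA was amplified and tagmented with Nextera XT, without strand marking, and read as pairs of 25 bases. The labels name no molecular identifiers, so the limit given for a count of 0 covers counting error only.

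Counts were filtered with filterByExpr (13949 of 52997 genes kept), scaled by TMM and fitted with edgeR 4.0.16 (R 4.3.3), a robust quasi-likelihood model with 1 mean per group over all 16 libraries and 12 residual degrees of freedom. Tests were two-sided with Benjamini-Hochberg adjustment over all genes tested, and adjusted p under 0.05 was a call. The biological coefficient of variation was 17.4%. Over 24 pairs of replicates the chi-square of the counts was 6.52 to 22.7 times its degrees of freedom, so no pair was the same library. The fit was tested on simulated data. DESeq2 1.42.0 was an alternative, beside other scalings, filters, a replicate block and left-out libraries.

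Levels per kb use the GENCODE principal transcript. The 10 genes are always named, as are H2-K1, H2-D1 and Irf1; from each other list up to 4 called genes with the smallest p are named, or up to 2 where none was called. For 1 further gene under this rule no values are reported here. Psmb6 and Psmb7 are given as partners of Psmb9 and Psmb10. The 10 genes and the lists were chosen with earlier results of these data known.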

Additional observations from a re-analysis of the deposited data

Results flagged for a closer look

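Of 40 sets of 4 replicates (10 genes in 4 groups), 3 held a library far from the other 3, where chance gives about 2. H2-T23 was at 98.2 CPM in PBS 4 h replicate 2. Tap1 was at 29.9 CPM in CGRP 8 h replicate 1. Tap2 was at 114 CPM in PBS 8 h replicate 1. PBS 4 h replicate 2 held the highest level of its group for 7 of the 10 genes, PBS 8 h replicate 4 for 6 and CGRP 8 h replicate 2 for 6, while CGRP 4 h replicate 1 and CGRP 8 h replicate 1 each held the lowest for 6.

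The CGRP effect differed between 8 h and 4 h by 0.72 on the log2 scale for Psmb8 (adjusted p = 0.0263, higher in 4 of 4 CGRP libraries at 8 h than in any at 4 h) and by 0.84 for Psmb10 (adjusted p = 0.028, likewise 4 of 4), by edgeR's test of the difference itself.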

How the results depend on the processing

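The 6 calls at 4 h held in all 25 alternatives; the number of the 10 genes called lower was 6 in 23 of them and 7 in the other 2, with upper-quartile scaling (B2m) and without the 4 libraries with most genes detected (Tap1). At 8 h the number called lower, 2 in the main analysis, was 1 with no filter on low counts, 1 in a fit to the 8 libraries of that time, 0 without the 4 libraries with most genes detected and 1 to 2 when leaving out 1 library. Tap2 at 8 h was -0.25 with no filter (adjusted p = 0.277). The number whose effect was higher at 8 h than at 4 h, also 2, was 0 without those 4 libraries and 1 to 2 when leaving out 1 library. The number higher at 8 h after CGRP, 4, was 3 with no filter and 3 to 4 when leaving out 1 library, Tap2 being the gene lost. The number lower at 8 h after CGRP, 0, was 0 to 1 when leaving out 1 library (B2m at -0.29 without CGRP 4 h replicate 1, adjusted p = 0.0411). Leaving out libraries removes samples from the fit; the cause of the other changes was not tested.

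With the replicate number as a block, 1 gene stayed called lower at 8 h, H2-T23, and Tap2 was lost (-0.27, adjusted p = 0.0596); 1 stayed called for the difference between the times, Psmb8, and Psmb10 was lost (0.84, adjusted p = 0.0501). Deviations of same-numbered libraries correlated between -0.0733 and 0.0901 over 16 pairs, 0 of them over 0.1, so the numbers were not taken to pair libraries.

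Signs turned where values were near 0. At 8 h Tapbp was -0.0335 with upper-quartile scaling and -0.0105 with a filter at a mean of 5 CPM, Psmb8 was 0.0106 with no filter and 0.0144 without the 4 libraries, and Psmb10 was -0.0248 and -0.00146 under the same scaling and filter as Tapbp. Between times after PBS, H2-T23 was -0.00516 with upper-quartile scaling and -0.0858 without the 4 libraries, and Psmb9 was -0.0807 without them.
Leaving out 1 library in turn, the ranges that crossed 0 were -0.56 to 0.12 for Nlrc5 at 4 h; at 8 h -0.14 to 1.02 for Nlrc5, -0.043 to 0.0581 for Tapbp, -0.0508 to 0.0597 for Psmb8 and -0.0407 to 0.0905 for Psmb10. For the difference between the effects they were -0.0897 to 0.0338 for B2m, -0.0324 to 0.20 for H2-T23, -0.0481 to 0.19 for Tap1 and -0.0194 to 1.14 for Nlrc5. Between times after PBS they were -0.0477 to 0.15 for H2-T23, -0.15 to 0.0877 for Tap1, -0.0994 to 0.00731 for Tap2 and -0.023 to 0.12 for Psmb9, and after CGRP -0.0488 to 0.11 for Tap1.

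Over all genes, leaving out 1 library gave 696 to 1149 higher at 4 h (1094 in the main analysis), 245 to 538 lower (512) and 332 to 802 higher (698) at 8 h, 32 to 105 (59) and 47 to 118 (97) for the difference, 7 to 72 (35) and 8 to 208 (37) between times after PBS, and 281 to 433 (426) and 385 to 581 (586) after CGRP. Without the 4 libraries, 87 were lower and 104 higher at 8 h, 30 and 33 for the difference, and 8 lower after PBS. DESeq2 gave 179 and 248 for the difference and 156 and 178 after PBS, and no filter on low counts gave 200 and 256, and 178 and 244. No scaling moved the median of all genes by over 0.1 on the log2 scale. Depth limits Nlrc5, with 0 to 30 reads per library.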
